A study of Mus musculus with 3 samples.

Results

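The extracellular proteinases of the matrix metalloproteinase (MMP), ADAM and ADAMTS families, the ADAMTS-like proteins and the tissue inhibitors of metalloproteinases (TIMPs) were followed in mesenchymal cells of mouse sciatic nerve, the supporting cells of its connective tissue layers. Members were taken by symbol alone: Mmp, Adam, Adamts or Adamtsl followed by digits, or Timp1 to Timp4. This gave 84 of the 53380 features in the deposited matrices: 23 Mmp, 33 Adam, 19 Adamts, 5 Adamtsl and 4 Timp genes. The study profiled 1 library each of intact nerve, of the nerve bridge at 7 days after injury and of the nerve bridge at 21 days after injury by single-cell RNA sequencing. In all 3 libraries the R26-TomatoLSL reporter was recombined by Pdgfrb-cre/ERT2, a tamoxifen-inducible Cre recombinase driven by the gene of a receptor that fibroblasts, pericytes and vascular smooth muscle cells share. Nerves were pooled, dissociated with collagenase and hyaluronidase, and sorted for TdTomato. Beads that remove myelin were used for the intact nerve alone, so this step and the injury cannot be told apart. The labels name neither the age and sex of the mice nor the kind of injury. With 1 library per group there was no replicate check, and every interval printed is a 95% interval for counting error only.

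MMPs cut collagens and other matrix proteins after removal of an inhibitory prodomain, and most are secreted while a few stay on the cell membrane. ADAMs are membrane-bound and release the outer parts of growth factors, cytokines and adhesion molecules. ADAMTS proteinases are secreted and act on proteoglycans such as aggrecan and versican, on procollagens or on microfibril proteins, ADAMTS-like proteins resemble them without a proteinase domain, and TIMPs block MMPs and part of the other 2 families. In injured nerve these enzymes are known for opening the blood-nerve barrier and for clearing and rebuilding the matrix through which axons regrow.

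The authors' annotation gave a class to 1343 intact, 1780 day 7 and 4111 day 21 cells, holding 8371421, 36169912 and 33683464 unique molecular identifiers (UMIs, counts of single RNA molecules). Median depth was 5667, 19316 and 7442 UMIs per cell, so the intact library had the widest intervals. Levels are UMIs of a gene per 1000000 UMIs, summed over annotated cells (CPM). Most intact cells were endoneurial (MES_ENDO, 663 cells) or epineurial (MES_EPI, 540 cells), with 116 perineurial cells (MES_PERI). Day 21 held 2069 perineurial cells, and the classes MES_DIFF, MES_DIV (dividing) and MES_EPI-diff had only 16, 7 and 1 cells in intact nerve, so their levels are given for injured nerve alone. The defining markers followed the labels of the 3 nerve layers, but the 10 perineurial markers summed to 5861 CPM in intact MES_PERI, 794 CPM at day 7 and 3052 CPM at day 21. Vascular smooth muscle markers reached 1983 CPM in intact MES_PERI against 216 CPM in MES_ENDO and 87.4 CPM in MES_EPI, and 32 of its 116 cells held at least 1000 CPM of them. In day 21 MES_DIV, 58 of 119 cells held at least 1000 CPM of Schwann cell markers. The annotation was made from the same counts, so differences between classes are descriptions. At most 2 annotated cell barcodes were shared between any pair of libraries.

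Of the 84 genes, 59 had more than 3 counts in annotated cells of at least 1 library, 7 had 1 to 3 counts at most and 18 had none. The 18 comprised 14 of the 21 reproductive-tract ADAMs together with Mmp1a, Mmp1b, Mmp7 and Mmp20. Several undetected or scarce MMPs lie in a run of 10 Mmp genes on mouse chromosome 9, from 7272514 to 7699585 (GRCm38, GENCODE M21), in the order Mmp13, Mmp12, Mmp1b, Mmp3, Mmp1a, Mmp10, Mmp8, Mmp27, Mmp20 and Mmp7. The stretches below come from RefSeq promoter windows (GRCm38.p6, from 250 bases before to 50 after the gene start). Those of the Mmp genes are shown because neighbours with the same short motif had very different levels here. Adam19, on chromosome 11, lies outside the run and is shown as another member with the motif. Capitals mark TGANTCA, a loose form of the motif of the AP-1 transcription factors that allows any base at N. The pattern reads the same on both strands. Each stretch runs 5′ to 3′ on the strand of its gene.
Mmp13, chr9:7272459-7272505, plus strand: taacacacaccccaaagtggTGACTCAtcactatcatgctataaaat
Mmp3, chr9:7445756-7445802, plus strand: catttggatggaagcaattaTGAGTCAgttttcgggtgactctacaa
Mmp10, chr9:7502259-7502305, plus strand: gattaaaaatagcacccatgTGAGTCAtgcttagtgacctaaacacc
Mmp12, chr9:7347310-7347356, plus strand: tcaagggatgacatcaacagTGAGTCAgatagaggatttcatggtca
Adam19, chr11:46055833-46055879, plus strand: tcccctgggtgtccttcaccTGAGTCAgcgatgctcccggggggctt

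The motif was found in the windows of 8 of the 10 genes of the run and of 5 of the 44 other members in the table (11.4%). It was found in 8.97% of 27025 genes and in 7.81% of 32851 windows. All these shares allow any middle base. The matches of Mmp20, Adam20 and Adam25 read TGAATCA, while those of the other members hold C or G in the middle. Mmp3 had 628, 1589 and 1996 counts in the intact, day 7 and day 21 cells. Mmp13 had 0, 79 and 0 counts, and Mmp10, with the same motif letters as Mmp3, had 0, 3 and 0. Mmp12 had 0, 0 and 4 counts, while Mmp27, whose window does not hold the motif, had 4, 13 and 9. The motif is a match of letters and does not show binding.

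At day 7, 20 of 57 members with more than 3 counts in either library were over 2-fold higher than in intact nerve, which is 35.1% beside 15.3% of all 18881 features measured in the same way. Over 2-fold lower were 6 of 57 (10.5%) beside 18.1% of features. At day 21, 19 of 57 (33.3%) were over 2-fold higher than in intact nerve, beside 12.9% of features, and 2 of 57 (3.51%) were lower, beside 11.5%. The 2 injury libraries share the intact library in these comparisons. Day 21 against day 7 gave shares near the background: 8 of 58 members higher (13.8%, beside 13.5% of features) and 8 lower (13.8%, beside 10.6%). The median log2 ratio of the members was 0.23 at day 7 and 0.54 at day 21 against intact nerve, beside −0.08 and 0.05 over all features. Trimmed-mean scaling moved the median of all features at day 7 from −0.08 to 0.10, a shift of the baseline that applies to every day 7 ratio here. Several called members rest on few counts: with genes at 0 set to a bound of 3 counts, 18 and 16 members were higher at day 7 and day 21. The shares of all features were taken without this bound, so these counts have no background.

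**Figure D1:**
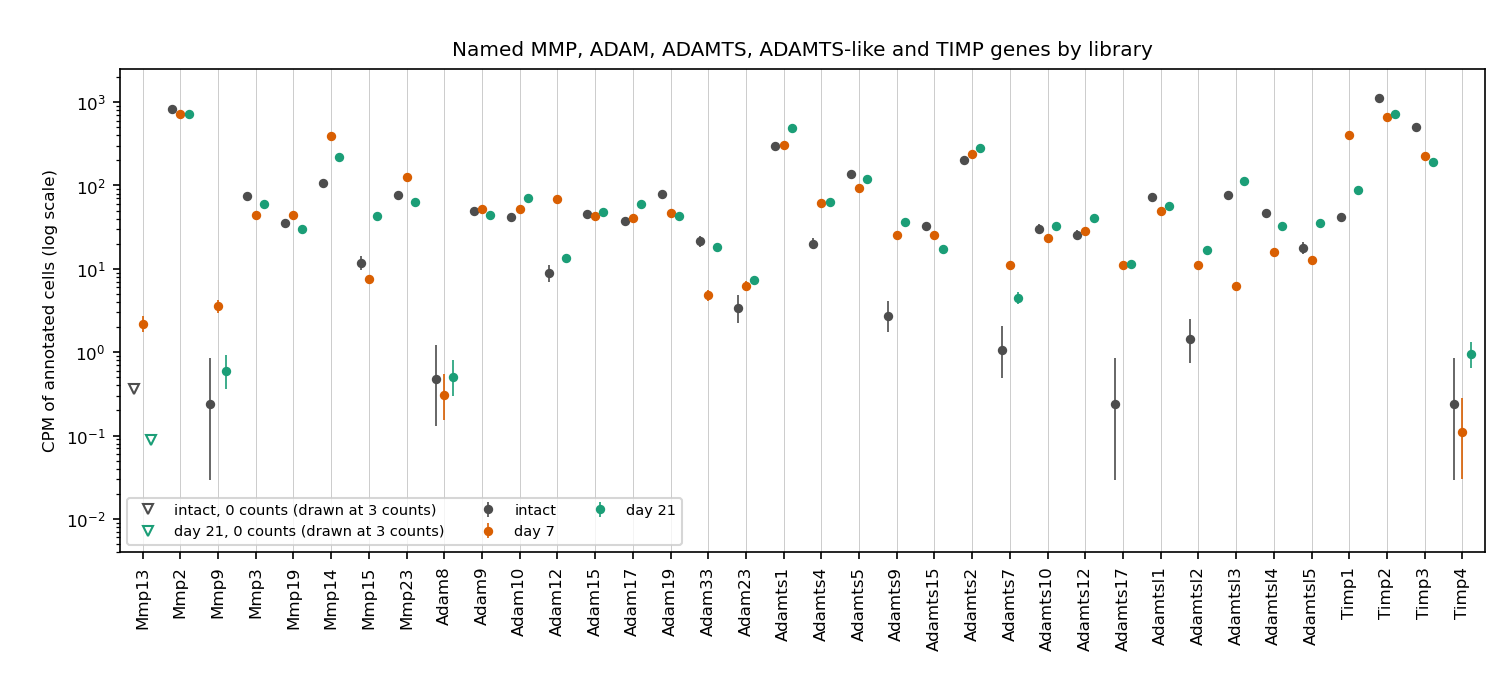
CPM in annotated cells of the 36 named members in the intact, day 7 and day 21 libraries (1 library each, log axis), with 95% Poisson intervals as vertical lines and triangles where a library had 0 counts. Timp1, Mmp14, Adam12 and Adamts9 are lowest in the intact library, and Adamtsl3 and Adam33 are lowest at day 7.

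Within layers the share of members over 2-fold higher than intact nerve was also above that of all features, while the share lower was near or below it. Among endoneurial cells 16 of 48 members were over 2-fold higher at day 7 (33.3%, beside 12.8% of features) and 8 were lower (16.7%, beside 15.5%). At day 21, 18 of 45 endoneurial members were higher (40%, beside 8.96%) and 1 was lower (2.22%, beside 10.8%). Among epineurial cells 18 of 53 were higher at day 7 (34%, beside 12.2%) and 6 lower (11.3%, beside 15.2%), and at day 21 13 of 50 were higher (26%, beside 9.1%) and 2 lower (4%, beside 10.2%). Among perineurial cells 15 of 43 were higher at day 7 (34.9%, beside 15.6%) and 6 lower (14%, beside 18.8%). At day 21, 17 of 50 perineurial members were higher (34%, beside 9.2%) and 3 lower (6%, beside 19%). The perineurial counts are the least firm, since 8 and 14 of those members had 0 counts in 1 of the libraries. At the bound of 3 counts 10 and 8 members were higher, with no share of all features taken at that bound.

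The TIMPs moved in opposite directions. Timp1 (chromosome X, 20870166 to 20874735), the inhibitor best known for induction by injury and cytokines, stood at 41.6 CPM in intact nerve, 409 CPM at day 7 and 87.9 CPM at day 21. The day 7 library was the highest in every class measured in all 3 libraries. Timp1 was 9.82-fold higher at day 7 than in intact nerve (8.85 to 10.97) and 2.11-fold higher at day 21 (1.89 to 2.37). Endoneurial cells showed the widest difference, from 22.8 CPM in intact nerve to 417 CPM at day 7, 18.2-fold (14.6 to 23.3). The highest levels at day 7 were in MES_EPI-diff at 638 CPM and MES_DIFF at 593 CPM, and perineurial cells were lowest at 187 CPM.

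Timp2 (chromosome 11), which inhibits MMPs and also takes part in the activation of pro-MMP2, stood at 1127, 660 and 726 CPM in intact nerve, at day 7 and at day 21. Epineurial Timp2 stood at 1676, 892 and 1164 CPM, while endoneurial Timp2 differed less, at 568, 504 and 567 CPM. Timp3 (chromosome 10), which binds to the matrix and also inhibits ADAM17 and the aggrecan-cutting ADAMTS enzymes, stood at 504, 224 and 189 CPM. Both were highest in the intact library, and Timp3 was 2.25-fold lower at day 7 (2.17 to 2.34) and 2.67-fold lower at day 21 (2.56 to 2.77). The day 7 ratio was just under 2-fold with TMM factors, and the log2 ratio at day 21 went from −1.42 to −0.90 with every barcode counted, also under 2-fold. In epineurial cells Timp3 stood at 662, 180.2 and 223 CPM, 3.68-fold lower at day 7 (3.48 to 3.89), and in endoneurial cells at 322, 208 and 223 CPM.

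Perineurial Timp3 stood at 553, 112 and 142 CPM, but its size depended on cells rich in smooth muscle markers. Without those 32 cells the intact level was 184.5 CPM and the day 7 value was 1.66-fold lower (1.30 to 2.07) in place of 4.94-fold. Perineurial Timp2, at 925, 428 and 495 CPM, went from 2.16-fold to 1.66-fold lower at day 7 on leaving out the same cells. Timp4 had 2, 4 and 32 counts in annotated cells, while barcodes without a class held 147 CPM in intact nerve. The summed level of the 4 TIMPs was 1672 CPM in intact nerve, 1293 CPM at day 7 and 1004 CPM at day 21. The layers did not all follow this order. The sum was 912, 1129 and 882 CPM in endoneurial cells and 2397, 1386 and 1478 CPM in epineurial cells. In perineurial cells it was 1500, 727 and 685 CPM, with the 32 cells rich in smooth muscle markers included.

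**Figure D2:**
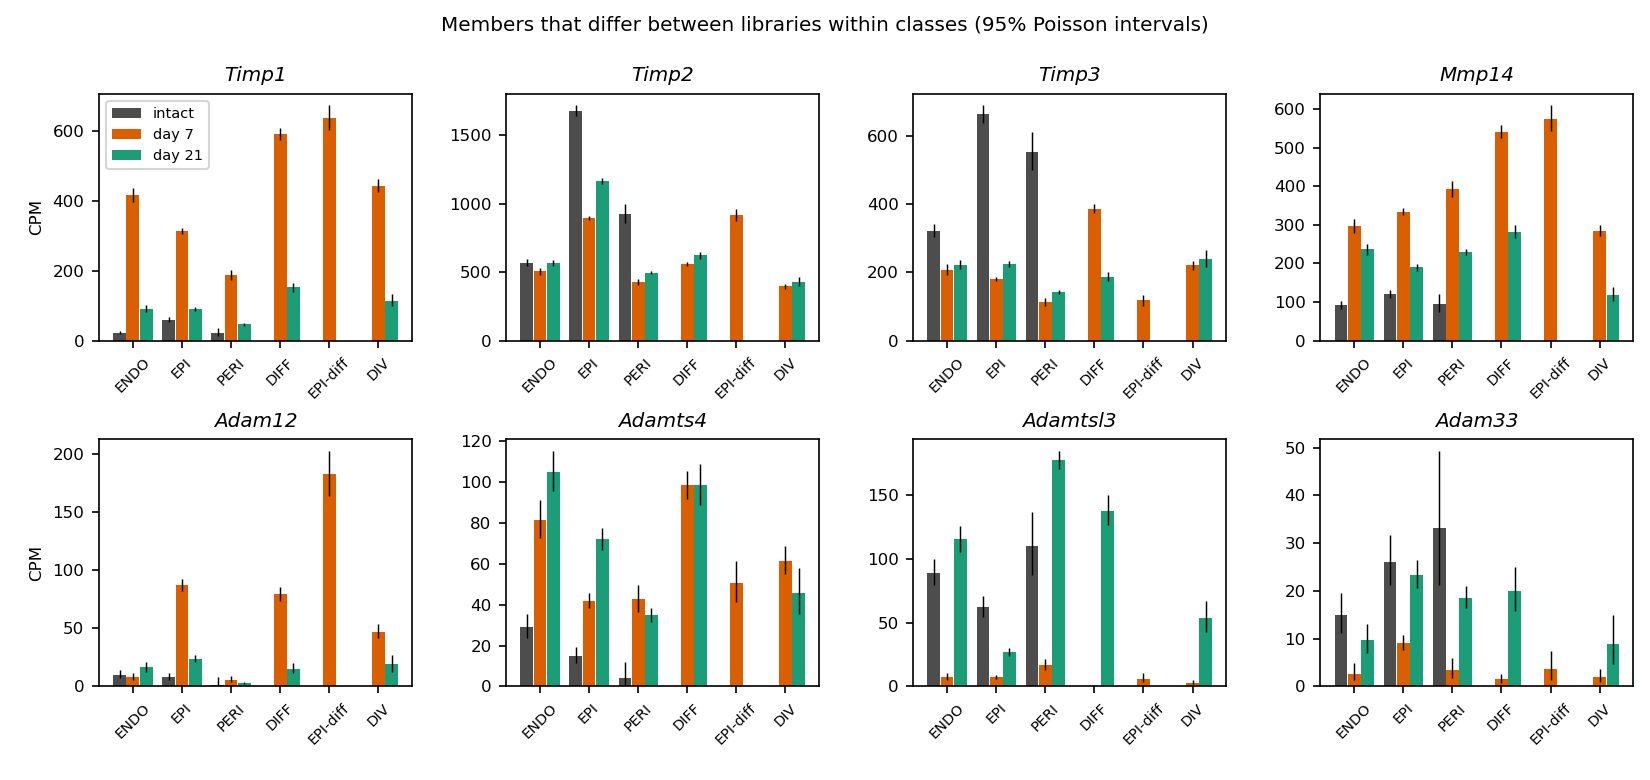
CPM by class in the intact, day 7 and day 21 libraries for 8 members, with 95% Poisson intervals. Bars are missing where a class had under 50 cells in a library. Timp1 and Mmp14 are highest at day 7 in every class, Timp3 is highest in intact nerve in the 3 layers, and Adamtsl3 and Adam33 are lowest at day 7.

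Among membrane-anchored MMPs, Mmp14 (chromosome 14, 54431612 to 54445364), a membrane-type collagenase that activates pro-MMP2, stood at 106 CPM in intact nerve, 388 CPM at day 7 and 219.9 CPM at day 21. It was 3.65-fold higher at day 7 than in intact nerve (3.42 to 3.92) and 2.07-fold higher at day 21 (1.93 to 2.22). Counting every barcode brought the day 21 log2 ratio from 1.05 to 0.95, under 2-fold. All 3 layers followed this order. Perineurial cells went from 95.1 to 393 and 229.7 CPM, endoneurial cells from 92.8 to 296 and 236 CPM, and epineurial cells from 119.8 to 334 and 189.6 CPM. MES_EPI-diff and MES_DIFF had the highest levels at day 7, 575 and 541 CPM.

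Mmp15, a second membrane-type MMP, was almost limited to perineurial cells in intact nerve: 129.6 CPM against 0.76 CPM in epineurial and 0.58 CPM in endoneurial cells, which rest on 3 and 2 counts. Over the whole library it stood at 11.8, 7.52 and 42.7 CPM, and so was 3.59-fold higher at day 21 than in intact nerve (2.94 to 4.47). Within perineurial cells the direction was the opposite, at 129.6, 24.8 and 87.9 CPM, or 1.48-fold lower at day 21 (1.18 to 1.82). Perineurial cells made up 2069 of 4111 annotated cells at day 21 and 116 of 1343 in intact nerve, and with equal class shares the log2 ratio was −0.42 in place of 1.85. Without the 32 cells rich in smooth muscle markers the interval of the perineurial day 21 ratio spanned 1, while the day 7 value stayed 4.03-fold lower (2.78 to 5.72). The sum of the perineurial markers was also lowest in the day 7 cells of this class, and its part in the Mmp15 levels was not tested.

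Mmp23, a type II membrane protein released by proteolysis, stood at 76.8, 127 and 63.2 CPM, highest at day 7. It was mainly epineurial, at 143 CPM in intact epineurial cells, 18.4 CPM in endoneurial cells and 0 counts in perineurial cells. Of the 7 membrane-anchored MMPs 6 were measured, and their summed level was 202 CPM in intact nerve, 535 CPM at day 7 and 335 CPM at day 21.

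The gelatinase Mmp2 (chromosome 8, 92827291 to 92853420), which cuts denatured collagen and basement membrane, hardly differed between whole libraries, at 839, 719 and 723 CPM. Its classes did not follow that flat line. Epineurial Mmp2 stood at 655, 1182 and 1377 CPM, 1.81-fold higher at day 7 (1.73 to 1.88) and 2.10-fold higher at day 21 (2.02 to 2.19). Endoneurial Mmp2 stood at 1231, 649 and 1193 CPM, 1.90-fold lower at day 7 (1.80 to 1.99). The counting intervals of its intact and day 21 levels overlapped (1195 to 1269 and 1160 to 1225 CPM). Perineurial Mmp2 was lower than in both other layers, at 88.2, 261 and 164.5 CPM. The order of the 2 main layers was thus endoneurial first in intact nerve and epineurial first in both injury libraries.

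Mmp9, the second gelatinase, had 2, 129 and 20 counts, 0.24, 3.57 and 0.59 CPM. The day 7 ratio of 11.99 to intact nerve rests on 2 counts (4.05 to 125), and day 21 was 5.88-fold lower than day 7 (3.73 to 10.2). With equal class shares that log2 ratio went from −2.56 to −0.71, under 2-fold, and endoneurial levels were 4.01 CPM at day 7 and 3.22 CPM at day 21. MES_DIFF held 78 of the 129 counts at day 7, in 26 cells. The collagenase Mmp13 had 79 counts at day 7 and 0 in the other libraries, at least 6.1-fold higher than intact nerve against a floor of 3 counts. Of these, 64 lay in 7 MES_DIFF cells, and 1 of those cells held 36, so the level is that of very few cells. Leukocytes are a known source of Mmp9, and the 7 myeloid markers summed to 16.5 CPM in day 7 MES_DIFF and to 1805 CPM in day 7 barcodes without a class, where Mmp9 stood at 2.50 CPM. The part of such cells in the Mmp9 counts was not tested.

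The stromelysin Mmp3, a broad proteinase that also activates other MMPs, stood at 75.0, 43.9 and 59.3 CPM and was epineurial in each library. Epineurial levels were 155, 101 and 178 CPM, against 1.44, 2.14 and 1.15 CPM in endoneurial cells. Perineurial cells held 0, 0 and 29 counts. Mmp19, a secreted MMP of many tissues, stood at 35.6, 44.4 and 30.1 CPM. It was higher in endoneurial than epineurial cells of intact nerve (48.7 and 31.7 CPM) and lower at day 21 (31.2 and 69.3 CPM). Epineurial Mmp19 was 2.17-fold higher at day 7 (1.81 to 2.65) and 2.18-fold higher at day 21 (1.81 to 2.67).

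**Figure D3:**
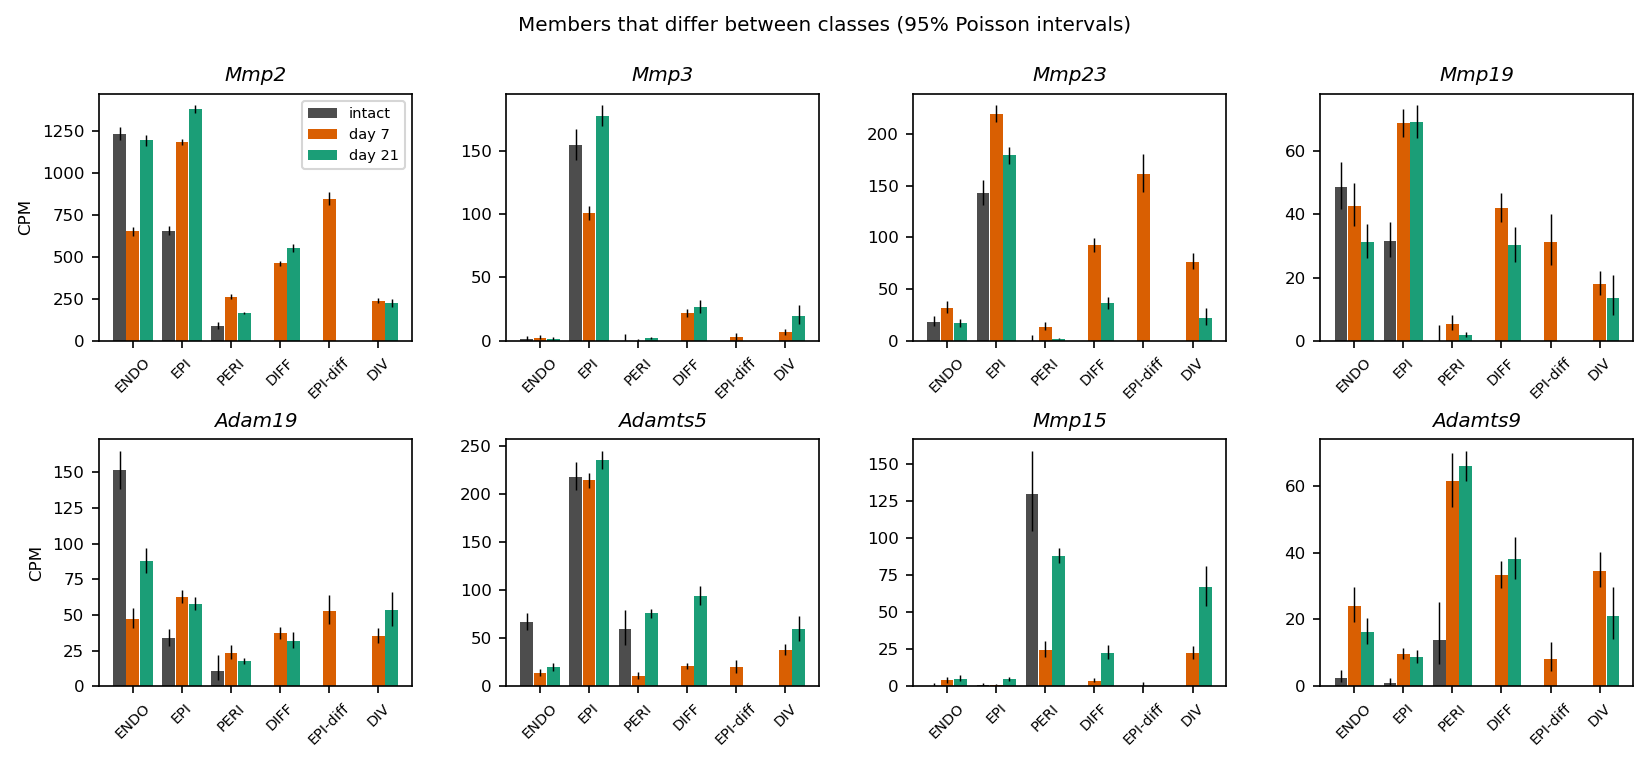
CPM by class in the intact, day 7 and day 21 libraries for 8 members, with 95% Poisson intervals. Bars are missing where a class had under 50 cells in a library. Mmp3, Mmp23 and Adamts5 are highest in MES_EPI, Mmp15 in MES_PERI in each library, and Mmp2 changes its leading layer between intact nerve and the injury libraries.

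Among sheddase-type ADAMs the main ectodomain sheddases differed by less than 2-fold between whole libraries of annotated cells. Adam10, which cuts Notch receptors and cadherins, stood at 41.5, 52.5 and 71.6 CPM, and Adam17, which releases TNF and ligands of the EGF receptor, at 37.2, 41.2 and 60.0 CPM. Both were highest at day 21, 1.73-fold (1.54 to 1.94) and 1.61-fold (1.43 to 1.83) above intact nerve. With equal class shares these log2 ratios went from 0.79 to 0.30 for Adam10 and from 0.69 to 0.35 for Adam17. Adam9 (49.0, 52.3 and 44.2 CPM) and Adam15 (45.2, 42.8 and 47.9 CPM) had intervals that spanned 1 in both comparisons with intact nerve. Adam8, an ADAM of leukocytes, had 4, 11 and 17 counts.

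Adam12 (chromosome 7, 133883199 to 134232146), which cuts growth factor-binding proteins and is known for its increase in activated fibroblasts, stood at 8.84, 68.2 and 13.6 CPM. It was 7.66-fold higher at day 7 (6.12 to 9.85) and 1.53-fold higher at day 21 (1.20 to 2.00). With equal class shares the log2 ratios went from 2.94 to 2.33 and from 0.62 to 1.10. MES_EPI-diff reached 182 CPM at day 7, epineurial cells 87.1 CPM and MES_DIFF 79.1 CPM. Endoneurial cells did not share this, at 10.1, 7.76 and 16.3 CPM, and epineurial cells were 10.3-fold higher at day 7 (7.38 to 15.2). The 8 injury mesenchymal markers summed to 17563 CPM in MES_EPI-diff and 2439 CPM in endoneurial cells at day 7, and their part in the Adam12 levels was not tested.

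Adam19, a relative of Adam12 that can cut neuregulin, was endoneurial in intact nerve at 151 CPM, with 33.9 CPM in epineurial and 11.03 CPM in perineurial cells. Whole-library levels were 80.2, 47.0 and 42.7 CPM. Endoneurial Adam19 stood 3.19-fold lower at day 7 (2.69 to 3.81) and 1.72-fold lower at day 21 (1.51 to 1.97), while epineurial Adam19 was 1.85-fold (1.54 to 2.24) and 1.70-fold (1.41 to 2.07) higher. Adam33, an ADAM of smooth muscle and mesenchyme, stood at 21.5, 4.84 and 18.5 CPM, 4.44-fold lower at day 7 (3.59 to 5.50), and was lowest at day 7 in all 3 layers. Adam23, a neural ADAM without proteinase activity that binds LGI proteins, stood at 3.35, 6.28 and 7.33 CPM. In day 21 MES_DIV 102 of its 112 counts lay in the 58 cells rich in Schwann cell markers, and without the dividing class its log2 ratio of day 21 to intact nerve went from 1.11 to 0.29.

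**Figure D4:**
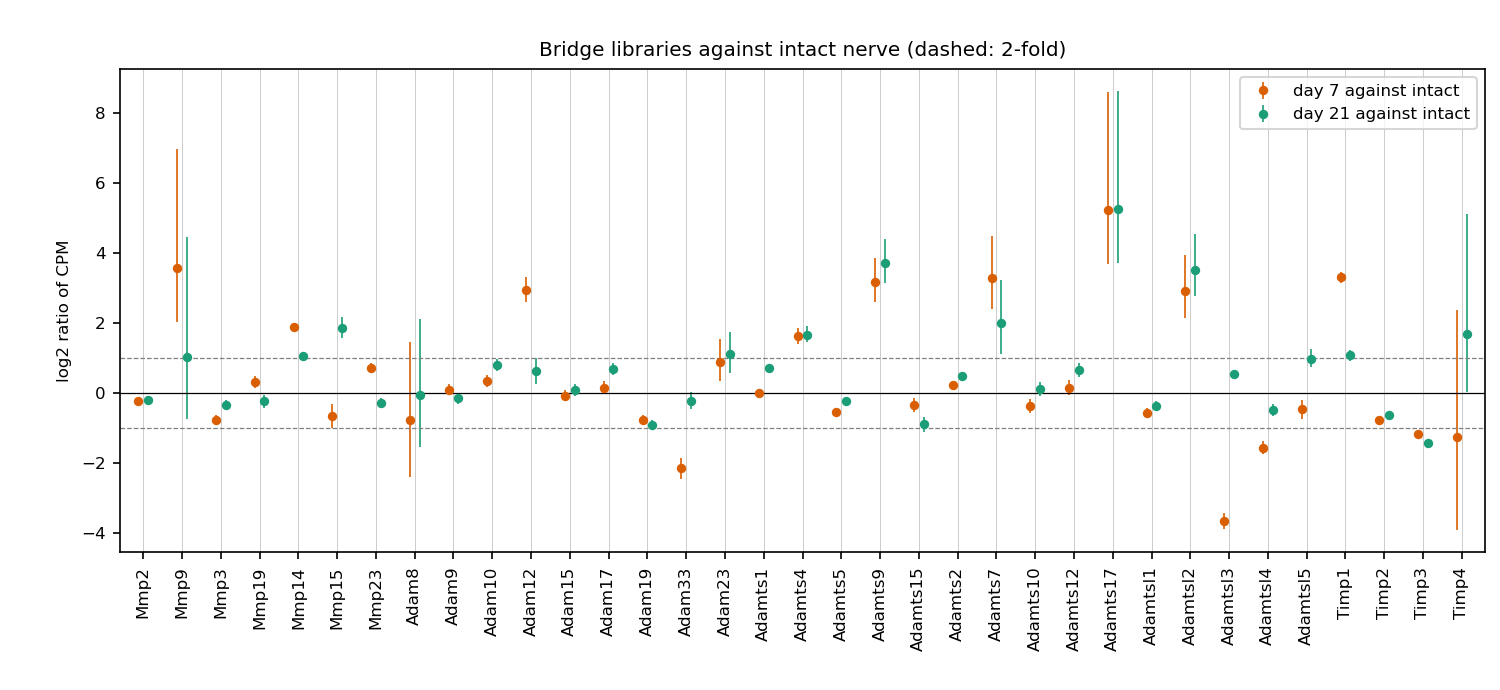
Log2 ratio of CPM at day 7 and day 21 to intact nerve for the named members other than Mmp13, with 95% counting intervals and dashed lines at 2-fold. Adamts9, Adamts17 and Adamtsl2 lie above the upper line at both times, and Timp3 lies below the lower line at both times.

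Of the 7 ADAMTS genes of enzymes that cut aggrecan and versican, Adamts9 had the highest ratio to intact nerve at both times. It stood at 2.75, 25.2 and 36.6 CPM, lowest in intact nerve, 8.997-fold higher at day 7 (6.09 to 14.6) and 13.0-fold higher at day 21 (8.83 to 21.1). The log2 ratios of 3.17 and 3.70 were 1.49 and 1.86 with every barcode counted and 2.44 and 2.37 with equal class shares. Perineurial cells led in each library, at 13.8, 61.3 and 65.8 CPM, and were 4.24-fold higher at day 7 than in intact nerve (2.37 to 9.40). Without the 32 intact perineurial cells rich in smooth muscle markers this was 3.57-fold (1.89 to 8.86). Adamts4 stood at 20.1, 61.9 and 64.1 CPM, 3.07-fold (2.63 to 3.63) and 3.19-fold (2.73 to 3.76) higher than intact nerve. With every barcode counted its log2 ratios went from 1.62 to 0.59 at day 7 and from 1.67 to 0.69 at day 21, both under 2-fold, and intact barcodes without a class held 93.7 CPM. Endoneurial Adamts4 stood at 29.1, 81.4 and 105 CPM, and MES_DIFF at 98.5 CPM at day 7 and 98.4 CPM at day 21.

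Adamts1 stood at 302 CPM in intact nerve and at day 7 and at 489 CPM at day 21, where it was 1.62-fold higher than intact nerve (1.56 to 1.69). With every barcode counted the day 21 direction turned, from a log2 ratio of 0.70 to −0.07, and the day 7 log2 ratio went from 0.00 to −0.65. Intact barcodes without a class held 851 CPM of Adamts1. Adamts5, the major aggrecan-cutting enzyme of mouse cartilage, stood at 138, 94.0 and 118 CPM. Epineurial Adamts5 was steady at 218, 214 and 235 CPM, whereas endoneurial cells stood at 67.4, 13.9 and 19.8 CPM and perineurial cells at 59.3, 11.2 and 75.9 CPM. At day 7 it was 4.81-fold lower in endoneurial cells (3.58 to 6.68) and 5.29-fold lower in perineurial cells (3.38 to 8.30), and at day 21 it was lower in endoneurial cells alone, 3.40-fold (2.65 to 4.42). Without the 32 intact perineurial cells rich in smooth muscle markers, perineurial Adamts5 was 4.03-fold lower at day 7 (2.265 to 6.83). At day 21 it was then 1.665-fold higher than in intact nerve (1.12 to 2.73). Adamts15 stood at 32.5, 25.6 and 17.5 CPM. The summed level of all 7 hyalectan-cutting ADAMTS genes in annotated cells was 496, 512 and 729 CPM. Barcodes without a class, which these sums leave out, held 1156 CPM of the same genes in intact nerve, 436 CPM at day 7 and 516.5 CPM at day 21.

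Of the procollagen N-proteinases, which trim the amino end of fibrillar procollagens, Adamts2 stood at 201, 236 and 284 CPM, 1.41-fold higher at day 21 than in intact nerve (1.34 to 1.48). Adamts3 and Adamts14 were below 9 CPM throughout. Of the other ADAMTS genes, Adamts17, linked to fibrillin microfibrils, had 2, 405 and 381 counts (0.24, 11.2 and 11.3 CPM), so its 37.5-fold ratio at day 7 rests on 2 counts (12.9 to 388), and its log2 ratio went from 5.23 to 3.22 with equal class shares. Adamts7, which cuts the matrix protein COMP, stood at 1.08, 10.98 and 4.51 CPM, 9.68-fold higher at day 7 (5.32 to 22.5). Adamts12, its closest relative, stood at 25.7, 28.6 and 40.6 CPM, and Adamts10, another microfibril-associated member, at 30.5, 23.6 and 33.0 CPM.

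The 5 ADAMTS-like genes split into 2 patterns. Adamtsl2, which binds fibrillin and latent TGF-beta complexes, stood at 1.43, 11.2 and 17.0 CPM, lowest in intact nerve, and was 7.53-fold (4.43 to 15.3) and 11.4-fold (6.75 to 23.1) higher at day 7 and day 21. Adamtsl3 (chromosome 7, 82335694 to 82614450) stood at 77.1, 6.17 and 112 CPM. Day 7 was the low library, 12.5-fold below intact nerve (10.7 to 14.6), and this held in endoneurial (11.7-fold), epineurial (8.50-fold) and perineurial cells (6.46-fold). Equal class shares brought the day 7 log2 ratio from −3.64 to −3.04. At day 21 endoneurial and perineurial cells were above intact nerve, 1.29-fold (1.12 to 1.49) and 1.60-fold (1.29 to 2.04), and epineurial cells remained 2.31-fold below it (1.94 to 2.75). MES_DIFF stood at 0.62 CPM at day 7 on 5 counts and at 138 CPM at day 21.

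Adamtsl4 was also lowest at day 7, at 46.4, 15.7 and 33.0 CPM, 2.95-fold below intact nerve (2.58 to 3.36). Adamtsl5 stood at 17.7, 12.8 and 35.1 CPM and Adamtsl1 at 73.2, 49.1 and 56.6 CPM. The summed level of the 5 genes was 216 CPM in intact nerve, 94.97 CPM at day 7 and 254 CPM at day 21.

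The remaining 23 measured members stood at or below 14.2 CPM, the level of Mmp11 in intact nerve. Mmp11, a stromelysin of stroma, was level over the libraries at 14.2, 12.8 and 13.2 CPM. Adamts16 stood at 3.82, 13.3 and 8.88 CPM, 3.43-fold higher at day 7 than in intact nerve (2.43 to 5.14). MES_DIFF held 281 of its day 7 counts (58.4%), and epineurial cells stood at 7.85, 6.65 and 4.85 CPM. Endoneurial Adamts16 stood at 0.29 CPM on 1 count, 2.68 and 31.5 CPM. Adamts6 stood at 2.51, 6.75 and 2.64 CPM, 2.63-fold higher at day 7 (1.72 to 4.42). Of the 21 reproductive-tract ADAMs 5 were measured, and their summed level was 6.09, 5.12 and 5.61 CPM.

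Genes that act with these families were counted in lists. Among protease inhibitors and MMP regulators other than the TIMPs 0 of 9 measured were over 2-fold higher at day 7 than in intact nerve and 5 lower, beside the 15.3% and 18.1% of all features. A2m, a broad proteinase trap, stood at 79.3 CPM in intact nerve and 3.84 CPM at day 7, and Reck, a membrane inhibitor of MMPs, at 53.2 and 19.2 CPM.

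The same shares, 15.3% and 18.1%, are the background for each count that follows. Of 20 shed ADAM substrates 8 were higher and 4 lower at day 7. Areg, a ligand of the EGF receptor, had 1 count in intact nerve and 1900 at day 7, and Hbegf, another ligand of that receptor, stood at 16.4 and 51.3 CPM. Il6ra, a receptor chain of interleukin 6, stood at 20.2 CPM in intact nerve and 4.48 CPM at day 7. Of 16 measured ADAMTS substrates 4 were higher and 4 lower at day 7. Fbn2, a fibrillin, stood at 15.4 and 257.8 CPM, and Col2a1, the cartilage collagen, at 27.4 and 3.98 CPM. Of 20 AP-1 and inflammatory genes 7 were higher and 1 lower. Runx2, a transcription factor of bone and cartilage cells, stood at 3.35 and 36.2 CPM, and Tgfb1, a growth factor that drives matrix production, at 21.9 and 65.1 CPM. The ADAM10 and ADAM17 partners gave 2 of 8 higher and 0 lower. Counts near the background were found for the convertases and astacins, with 1 of 8 higher and 1 lower, and for the cathepsins and other proteases, with 1 of 13 higher and 3 lower.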

How the data were processed

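Per the file headers, the deposited values were UMI counts per gene and barcode from Cell Ranger 6.1.2. The submitters' processing notes also list Cell Ranger 3.0.2, Seurat 4.0.1 and the mouse builds mm10 and GRCm38. Class names came from the deposited cell annotation, and 1 of its 4112 day 21 cells was not found in the matrix. Counts were summed over annotated cells of a library or class. CPM carries exact Poisson intervals, and ratios carry exact conditional binomial intervals after 0.5 counts were added to each sum. A member or feature was measured with more than 3 counts in either library, class levels needed 50 cells, and class ratios needed 100 cells in both libraries. No test was possible with 1 library per group. The ratio code was tested on simulated data. Doublets were not called and free RNA was not subtracted. Without knowledge of strand in counting, overlapping genes are uncertain: 11 members overlap a gene on the same strand, and Timp1, Timp3 and Timp4 lie antisense to Syn1, Syn3 and Syn2. Members named one by one were a fixed list plus those with at least 20 CPM in a library, 50 CPM in a class, or 5 CPM and a 4-fold ratio. Members, lists and rules were chosen with earlier results of these data known. TMM factors came from edgeR 4.0.16. Other settings tried were equal weight per cell, every barcode, equal class shares, no dividing class, other count filters and another added count. Protein sequences were not analysed here. The list of plasminogen system genes is not reported here.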

Additional observations from a re-analysis of the deposited data

Results flagged for a closer look

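Some members had opposite ratios in different classes under the same contrast, and these differences were not tested. The log2 ratio of Adam19 at day 7 against intact nerve was 1.03 in perineurial cells, on 8 intact counts, and −1.67 in endoneurial cells. The log2 ratio of Adam12 at day 21 against day 7 was 1.06 in endoneurial cells, −1.89 in epineurial cells, −2.36 in MES_DIFF and −1.30 in MES_DIV.

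Other members were high in barcodes that the annotation gives no class, which the comparisons do not use: each was at least 5 CPM there and over 4 times its level in annotated cells of the same library. In the intact library Timp4 stood at 147 CPM, and 458 of its 460 counts lay in the 402 barcodes with at least 1000 CPM of vascular smooth muscle markers. Adamts9 stood at 24.2 CPM, Mmp17 at 19.1 CPM, Adamts8 at 17.5 CPM, with all 55 counts in those barcodes, and Mmp12 at 5.1 CPM. At day 7 Mmp17 stood at 23.5 CPM, and 408 of its 517 counts lay in barcodes with at least 1000 CPM of Schwann cell markers. At day 21 Adam23 stood at 80.1 CPM and Adamts20 at 43.3 CPM, with 1417 of 1459 and 759 of 788 counts in such Schwann-marker barcodes. Mmp17 stood at 15.8 CPM, Timp4 at 13.8 CPM, Adam11 at 11.6 CPM and Mmp12 at 5.38 CPM, with 97 of 98 Mmp12 counts in barcodes rich in myeloid markers.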

How the results depend on the processing

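No paired analysis was possible because each group was 1 library. Counts of members over 2-fold higher than intact nerve stayed within 1.5 times of the values above under each setting tried. Members over 2-fold lower at day 7 than in intact nerve numbered 10 of 61 with every barcode, beside 19.4% of all features. Those lower at day 21 than in intact nerve, 2 of 57 above, numbered 5 of 57 with equal weight per cell (12.3% of features). They numbered 5 of 60 with every barcode (12%), 1 of 49 with at least 20 counts (6.91%) and 4 of 61 with no low-count filter (17.9%). Those lower at day 21 than at day 7 numbered 14 of 66 with no low-count filter, beside 16.8% of features. The median log2 ratio of that comparison, 0.10, was −0.06 with TMM factors. Over all features this median went from 0.11 to −0.05. Among ratios past 2-fold, the day 21 log2 ratio to intact nerve reversed for Mmp15 with equal class shares (−0.42 from 1.85) and for Timp4 with every barcode (−2.87 from 1.69). Smaller ratios also changed sign in that comparison. With equal class shares Mmp2 went from −0.21 to 0.47, Mmp19 from −0.24 to 0.35, Mmp23 from −0.28 to 0.30, Mmp3 from −0.34 to 0.21, Adam15 from 0.08 to −0.34 and Adamtsl1 from −0.37 to 0.01. With every barcode Adamts1 went from 0.70 to −0.07, Adamts10 from 0.11 to −0.13 and Adam8 from −0.05 to 1.34. At day 7 Mmp15 (0.08 from −0.66) and Adam8 (1.61 from −0.76) did so with every barcode, and Adam23 (−0.50 from 0.89) with equal class shares. Mmp2 (0.08 from −0.22) and Adam9 (−0.05 from 0.09) also changed sign at day 7 with equal class shares, and Adam15 (0.09 from −0.08) with TMM factors. The cause was not tested. Class ratios without cells rich in another type's markers were added after seeing the data. In MES_DIV, without the Schwann-marker cells, the log2 ratio of day 21 to day 7 was −0.06 for Adam23 and −0.49 for Adamts20, from 2.52 and 2.27. Depth limits the intact library most, where a count of 0 allows 0.36 CPM.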
